A study of Mus musculus with 42 samples.

Results

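Genes that mark fetal-like and injury-induced ("revival") epithelium were followed across the colon of Mtg16 mutant mice, before injury, after injury and in tumors. The 9 members, Ly6a, Ly6c1, Anxa1, Anxa3, Clu, Il33, Plaur, Tgm2 and Msln, were chosen by symbol as known markers of the fetal, injured and Clu+ revival states, out of 20462 gene rows in the tables, and each was found once in every table. RNA was sequenced from 42 libraries in 14 groups, which the authors compared in 9 tables.

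All mice were on a C57/BL6 background and at least 8 weeks old. MTG16, encoded by Cbfa2t3, is a transcriptional corepressor. One colony carried Mtg16-/- (labelled Mtg16-null) mice and the other Mtg16 T/T mice, homozygous for P209T, a proline-to-threonine substitution that weakens binding to E proteins, and each had its own WT littermates. Both alleles are germline, so every cell type of a mutant carried them. Crypts of untreated mice were isolated by chelation, either proximal (5 cm at the cecum, 2 libraries in each of the 4 genotype groups) or distal (5 cm at the anus, 4 Mtg16-/- with 4 WT and 4 Mtg16 T/T with 3 WT). Distal crypts after injury came from mice given 2% dextran sulfate sodium (DSS) in drinking water for 5 days and water for 4 days (4 Mtg16-/- with 3 WT and 3 Mtg16 T/T with 3 WT). Distal tumors came from the Mtg16 T/T colony only, 3 of each genotype, after 10 mg/kg azoxymethane and 3 cycles of 3% DSS for 4 days and water for 16 days, and were dissected whole. The labels do not say whether each library was a separate mouse, and where libraries share one, p-values measure only technical spread.

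When colon epithelium is injured, surviving cells switch off part of their adult program and take up genes of the fetal gut, and Clu+ revival cells are one such state in the small intestine. Ly6a (Sca-1) is the surface marker most used for this state, and Tgm2, Anxa1, Anxa3, Clu, Il33 and Plaur are often listed with it. Several members also have other sources in colon: Ly6a and Ly6c1 are made by endothelium and leukocytes, Plaur by neutrophils and macrophages, Il33 by stroma and Msln by mesothelium. In bulk libraries, fewer cells of a type and less RNA per cell cannot be told apart.

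The members lie on 7 autosomes, in the GENCODE vM21 annotation of GRCm38. Ly6a (chr15:74994877-74998031, minus strand) and Ly6c1 (chr15:75044018-75048830, minus) are neighbors of 1 gene family, and Anxa1 (chr19:20373428-20390944, minus) and Il33 (chr19:29925114-29960718, plus) share a chromosome. The others are Anxa3 (chr5:96793339-96845966, plus), Clu (chr14:65968483-65981547, plus), Plaur (chr7:24462484-24475968, plus), Tgm2 (chr2:158116402-158146436, minus) and Msln (chr17:25748613-25754378, minus). Ly6c1 has a near-identical neighbor, Ly6c2, so its level depends on how shared reads were split.

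The start of a gene is shown for 3 members because their levels went opposite ways along the colon, Plaur being lower and Ly6c1 and Il33 higher in distal crypts. The 250 bases before the RefSeq start (GRCm38.p6) are printed 5′ to 3′ on the gene's strand, and capitals mark matches on either strand to 3 motifs: the E box (CANNTG) that E proteins bind, GGAATG for TEAD factors and TGANTCA for AP-1. RefSeq promoters were matched for 4 of the 9 members, the other being Anxa1.
Plaur (chr7:24462233-24462482, plus): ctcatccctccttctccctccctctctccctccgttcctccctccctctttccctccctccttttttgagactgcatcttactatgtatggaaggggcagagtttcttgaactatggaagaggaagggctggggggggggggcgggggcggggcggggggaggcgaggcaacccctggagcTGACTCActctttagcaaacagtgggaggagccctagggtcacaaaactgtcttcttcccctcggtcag
Ly6c1 (chr15:75048838-75049087, minus): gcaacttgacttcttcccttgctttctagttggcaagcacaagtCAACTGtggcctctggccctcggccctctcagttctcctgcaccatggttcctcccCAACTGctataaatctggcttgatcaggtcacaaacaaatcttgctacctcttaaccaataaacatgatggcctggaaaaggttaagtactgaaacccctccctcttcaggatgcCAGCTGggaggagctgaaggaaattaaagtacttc
Il33 (chr19:29924863-29925112, plus): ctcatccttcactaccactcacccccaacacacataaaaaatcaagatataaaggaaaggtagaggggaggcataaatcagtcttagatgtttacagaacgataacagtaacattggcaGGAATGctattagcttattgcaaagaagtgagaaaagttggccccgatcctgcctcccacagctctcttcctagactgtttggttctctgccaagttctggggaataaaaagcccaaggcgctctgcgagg
The Plaur window held 1 AP-1 match and no E box or TEAD match, the Ly6c1 window held 3 E boxes, and the Il33 window held 1 TEAD match and no E box. Second starts, not printed, held 2 E boxes for Ly6c1, and 2 E boxes and 1 TEAD match for Il33. Of 32851 mouse promoter windows of this length, 66.2% held an E box, 12.6% the TEAD letters and 6.75% the AP-1 letters, so an E box alone sets no promoter apart. These matches are letters in a window and were not tested as sites.

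Each deposited value is a normalized count, an estimated read count divided by a size factor for its library. Genes with a table mean of at least 10 were tested with limma on log2 (normalized count + 1), the p-value was adjusted over all genes of a table by the Benjamini-Hochberg method, and a gene was called when adjusted p was under 0.05. Fold changes below are on that scale and understate changes of low genes. Recovered reads per library ran from 32231389 to 74661922 (median 46659625), for 38 of the 42 libraries. The least abundant of 7 epithelial markers averaged at least 3521 in every table of crypts, so epithelium was present, which does not exclude other tissue. The targeted gene Cbfa2t3 read 427, 594, 596 and 486 in Mtg16-/- crypts after DSS against 2020, 1845 and 2519 in WT, with no overlap. At baseline it overlapped in distal crypts (694, 1095, 424 and 689 against 1809, 1666, 1027 and 1555), and the T/T allele is a point mutation that its level does not check.

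One library stood apart before any comparison. In the distal library labelled Mtg16-/- replicate 2 at baseline, 217 genes that were at least 8-fold higher in WT distal than proximal crypts lay at a median of -3.77 log2 units from the WT distal mean, and 217 genes higher in proximal crypts at 4.19. The other 3 Mtg16-/- libraries lay within -0.12 and 0.16 for the first set and 0.03 and 0.32 for the second. Members followed: Ly6c1 read 46.1 there against 3598 to 9435 in the others, and Anxa3 1380 against 10760 to 11650. The members' genotype fold changes in baseline distal crypts are therefore given with and without it.

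**Figure D1:**
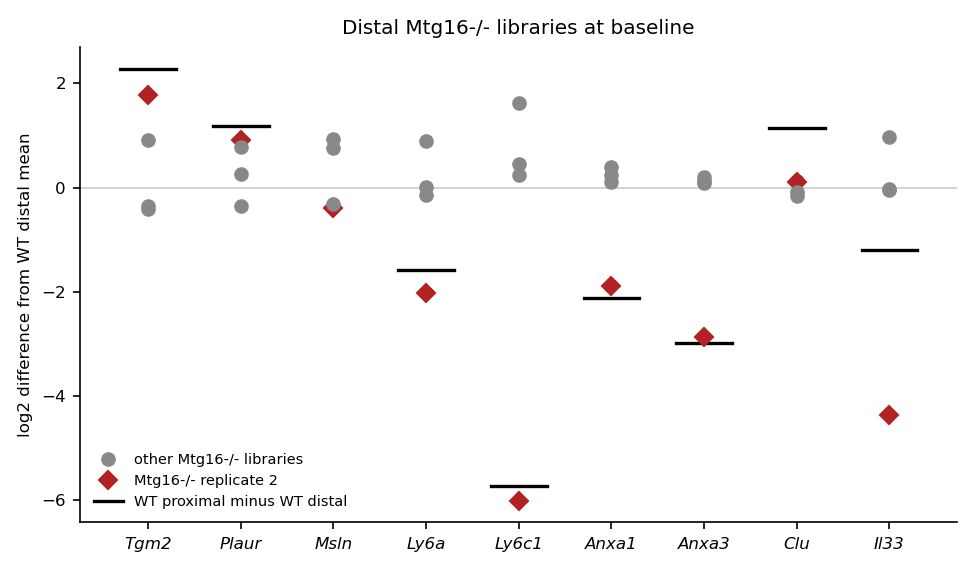
Members in the 4 baseline distal Mtg16-/- libraries, as the difference of log2 (normalized count + 1) from the mean of 4 WT distal libraries; bars show WT proximal minus WT distal from the table of WT segments, where Msln was too low to be fitted. Replicate 2 (diamond) lies near the proximal bar for Ly6a, Ly6c1, Anxa1 and Anxa3, and far from the other 3 libraries (circles).

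Along the untreated WT colon the members split into a distal and a proximal group. All 8 members tested were called, 5 higher in distal crypts (7 libraries) than in proximal crypts (4 libraries) and 3 lower, where 20.1% of all 13841 genes were called higher and 22.0% lower. With the number that opens the library name as a covariate 6 members were called (23.0% of genes), Clu at -0.42 (limma adjusted p = 0.538) and Il33 at 1.37 (limma adjusted p = 0.129) being lost, and within the 2 proximal and 2 distal libraries of the number 4149 Plaur was lost too (-1.26, limma adjusted p = 0.0711), leaving 5 (13.2% of genes). The distal group was Ly6c1, Anxa3, Anxa1, Ly6a and Il33, and the proximal group Tgm2, Plaur and Clu. Msln averaged 6.88 ± 4.80 (SD, n = 7) and 13.7 ± 8.58 (n = 4) and was too low to test. Markers of other cell types differed between segments as well. Summed T cell markers were 285 to 979 in distal and 1633 to 2529 in proximal crypts (6 of 6 tested called lower). Macrophage markers were 263 to 594.5 and 196.5 to 247 (5 of 6 called higher, 1 lower). Neutrophil markers were 38.3 to 72.2 and 11.9 to 22.8 (the 1 tested called higher). Endothelial markers were 268.5 to 379 and 149.7 to 275.3 (of 2 tested 1 called higher, 1 lower). Mesothelial markers were 19.9 to 50.7 and 116 to 247, of which only 1 of 4 was high enough to test and was called lower. The part of these cell types in the members' levels was not tested.

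Ly6c1, a GPI-anchored Ly6 surface protein, was the most unequal. Its distal libraries read from 2286 to 3902 (median 3200) and its proximal libraries 62.0, 95.7, 44.6 and 39.8. It was 53.0-fold higher in distal crypts (log2 fold change 5.73, SE 0.214, limma adjusted p = 1.75e-10), and the exact two-sided permutation p was 0.00303, the smallest these group sizes allow. Its relative Ly6a read 31240 to 40580 in distal (median 36930) and 10540 to 13340 in proximal crypts, a 3.02-fold difference. All 10 other Ly6 genes tested were on the distal side and 6 were called, among them Ly6g (6605 ± 1242, SD, n = 7, against 64.3 ± 52.0, n = 4).

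The annexin members, which bind phospholipid in a calcium-dependent way, were also higher in distal crypts. Of 9 other annexins tested 2 were called higher and 2 lower (Anxa9 and Anxa13 at -2.51 and -0.40). Anxa3 read 8977 to 10460 (median 9902) against 1125 to 1465, a log2 fold change of 2.99 (SE 0.074, limma adjusted p = 6.24e-12), and Anxa1 read 7998 to 9576 (median 8460) against 1377 to 2644 (2.13, SE 0.133). Neither overlapped. Il33, an alarmin cytokine stored in nuclei, was low and overlapped between segments, with 24.3 to 105.9 distal and 14.5 to 33.1 proximal (1.19, SE 0.352, limma adjusted p = 0.0144).

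Tgm2, which crosslinks proteins, was the main proximal member. The 4 proximal libraries read 4496 to 6701 and the 7 distal ones 958 to 1570, a log2 fold change of -2.29 (SE 0.144, limma adjusted p = 2.57e-08). Plaur, the urokinase receptor, read 304.4 to 428 proximal and 120.4 to 205 distal (-1.18, SE 0.176). Clu, a secreted chaperone that names the revival cells, overlapped, with 73.4 to 121 proximal and 22.2 to 85.1 distal (-1.15, SE 0.347, limma adjusted p = 0.0164). Leaving out 1 library at a time lost only Il33 (without proximal WT replicate 2 of the T/T colony) or Clu (without proximal WT replicate 2 of the Mtg16-/- colony).

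In WT distal crypts compared after DSS and at baseline, members were called in both directions, and so were genes at large. Only the Mtg16 T/T colony was tested, and levels of the other colony are given below. In the Mtg16 T/T colony, 2 of 9 members rose (Clu, Msln) and 3 fell (Anxa1, Anxa3, Ly6c1), while 14.0% of 13566 genes were called higher and 21.6% lower. All libraries after DSS opened their names with 1 number in the labels and all baseline libraries with another, so injury and that number cannot be told apart. Counts of members moved with those of all genes when 1 library was left out. No member was called without DSS replicate 1 (3.62% of genes called), baseline replicate 1 (5.03%) or baseline replicate 2 (0.00737%), 2 were called without baseline replicate 3 (9.41%) or DSS replicate 2 (13.4%), and 7 without DSS replicate 3 (66.9%). Adding the level of Xist, a proxy for sex, to the fit ended all 5 calls, and 0.00737% of genes were called, with limma adjusted p from 0.0787 (Anxa1) and 0.0788 (Clu) to 0.166 (Ly6c1). The log2 fold changes of that fit were 1.39 for Clu, 1.36 for Msln, -1.31 for Anxa1, -0.84 for Anxa3 and -0.71 for Ly6c1. EdgeR called 4 members (32.2% of genes), without Anxa3 (edgeR adjusted p = 0.0535), and DESeq2 called 6 (44.1% of genes), with Il33 lower (-1.54, DESeq2 adjusted p = 0.0248).

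Clu read 24.3, 39.3 and 27.1 at baseline and 118, 86.8 and 75.9 after DSS, with no overlap (log2 fold change 1.61, SE 0.296, limma adjusted p = 0.0137). Msln, a GPI-anchored protein of mesothelium, read 1.21, 6.75 and 3.69 at baseline and 24.7, 10.3 and 16.3 after DSS (1.99, SE 0.566, adjusted p = 0.0366 by limma). Both rises were from low levels, and 3 libraries against 3 cannot give a permutation p under 0.1. Summed mesothelial markers, mostly Upk1b, were 63.7 to 131 after DSS and 21.4 to 52.2 before, with the 1 marker tested called higher, and their part in the Msln level was not tested.

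In the Mtg16 T/T colony Anxa1 fell from 10400, 10290 and 8929 to 3300, 2965 and 5648 (log2 fold change -1.37, SE 0.247, limma adjusted p = 0.0130). Anxa3 fell from 11040, 11010 and 9565 to 5118, 4247 and 8360 (-0.89, SE 0.248), and Ly6c1 from 4053, 4191 and 2436 to 1718, 1866 and 2409 (-0.81, SE 0.247). In each of the 3 genes all DSS libraries of this colony lay below all its baseline ones, and each is higher in distal than proximal crypts of untreated WT colon. Other segment genes moved too: 216 distal-high genes lay at a median of -0.56, -0.61 and -0.09 in the 3 DSS libraries from the baseline mean, and 149 proximal-high genes, the side of Clu, at 0.85, 0.76 and 0.52. In WT crypts of the Mtg16-/- colony Anxa1 was higher after DSS, in CPM (the normalized count scaled to a common library total). It read 206.5 to 250.8 CPM after DSS and 177.9 to 196.3 at baseline, in groups scaled apart and not tested. Anxa3 and Ly6c1 overlapped there.

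In the Mtg16 T/T colony Il33 (84.9, 59.6 and 25.8, then 16.2, 11.4 and 31.0) overlapped and did not pass in limma (-1.45, limma adjusted p = 0.0760). Ly6a, Plaur and Tgm2 did not pass either, with log2 fold changes of -0.16, 0.52 and 0.29, and all 3 overlapped between groups. Ly6a read 40950, 43590 and 34180 before and 32770, 32930 and 40860 after injury. Over all genes 14.0% were called higher and 21.6% lower. Of the relatives tested, 2 of 11 other Ly6 genes rose (Ly6e and Ly6m, 0.53 and 1.47), as did 2 of 8 other annexins (Anxa2 and Anxa8, 0.51 and 0.66), and none fell. Of 18 other revival genes tested, 5 rose, among them Emp1, Krt7 and S100a6, and 1 (Sprr2a1) fell. Published lists, without the members, were mixed: of 387 Clu+ revival genes 38 rose and 133 fell (median log2 fold change -0.27, with 0.004 over all genes), of 47 genes of a revival cell cluster 13 rose and 2 fell (0.37), and of 219 fetal genes 40 rose and 30 fell (0.22). The DSS-regenerating list had 19 of 132 up and 13 down (0.23), and a composite injury list 14 of 57 up and 3 down (0.20). Of genes of Ascl2-dependent dedifferentiation, 85 of 188 rose and 23 fell (0.46). Summed neutrophil markers were 83.7 to 495 after DSS and 50.4 to 77.6 before, and fibroblast markers 147 to 356 and 43.7 to 113, and their part in the changes was not tested. In WT crypts of the Mtg16-/- colony, scaled apart and not tested, Tgm2, Plaur and Msln were higher after DSS without overlap. Tgm2 read 50.95 to 70.32 CPM after DSS and 20.46 to 26.87 at baseline, Plaur 7.845 to 8.166 and 2.732 to 4.022, and Msln 0.4559 to 1.285 and 0.07661 to 0.3043. Clu (1.296 to 1.739 and 0.7917 to 1.959), Ly6a and Il33 overlapped. Library name numbers differed there too.

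Before injury, genotype moved no member past the test. In distal crypts 0 of 9 were called for Mtg16-/- (0.239% of 13831 genes called) and 0 of 8 for Mtg16 T/T (0.0369% of 13535). In proximal crypts 0 of 9 were called for Mtg16-/- (0.0645% of 13944) and 0 of 9 for Mtg16 T/T (0.232% of 13767), with 2 libraries a group and no permutation p under 0.333 possible. Unadjusted p was under 0.05 for 0, 1, 0 and 5 members in these 4 comparisons (4.63%, 4.65%, 5.96% and 12.0% of genes), and 0 members were called in the distal ones by edgeR (0.210% of genes called for Mtg16-/- and 0.0369% for Mtg16 T/T) or DESeq2 (1.47% and 0.393%). In proximal crypts 3 members lay higher without overlap in Mtg16-/- (17.5% of genes) and 7 lower in Mtg16 T/T (22.9% of genes), Anxa3 for example at 768 and 843 against 1124 and 1173 in WT. Tgm2 read 846, 3720, 2031 and 814 in distal Mtg16-/- crypts against 1049, 1096, 1200 and 980.0 in WT, a log2 fold change of 0.49 (SE 0.449), or 0.05 (SE 0.289) without the library that stands apart. In distal Mtg16 T/T crypts it read 992, 988, 1234 and 825 against 1474, 1370 and 1163 (-0.41, SE 0.150, limma adjusted p = 0.863). Plaur differed by 0.39 (SE 0.295) in Mtg16-/-, or 0.22 (SE 0.283) without that library, and by -0.003 in Mtg16 T/T distal crypts. Without it the log2 fold change went from -0.92 to 0.78 for Ly6c1, from -0.62 to 0.135 for Anxa3, from -0.87 to 0.30 for Il33, from -0.29 to 0.25 for Anxa1 and from -0.32 to 0.25 for Ly6a, so 5 members turned sign, and Msln went from 0.25 to 0.46 and Clu from -0.001 to -0.04. None of the 9 was called either way, with 1.06% of genes called without that library. In proximal crypts Tgm2 was at 9725 and 5260 in Mtg16-/- with 6597 and 4794 in WT, and at 5067 and 3914 in Mtg16 T/T with 6514 and 6078 in WT. Summed smooth muscle markers there were 51.9 to 2994 in Mtg16-/- (WT 65.1 to 74.7) and 34.9 to 1181 in Mtg16 T/T (WT 36.2 to 39.96). In distal crypts they were 50.5 to 1675 in Mtg16 T/T (WT 69.9 to 81.3) and 35.6 to 201.8 in Mtg16-/- (WT 88.1 to 186.4). None of these markers was called, and their part in the members' levels was not tested.

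After DSS, Tgm2, Plaur and Msln were higher in the mutants of both colonies. In the Mtg16-/- colony all 3 lay above WT in every library and limma called Tgm2 alone, 1 of 9 higher and 0 lower, where 0.380% of 14476 genes were called higher and 0.249% lower. In all, 3 of 9 members were higher without overlap (6.18% of genes), and 5 had an unadjusted p under 0.05 (12.4% of genes).

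**Figure D2:**
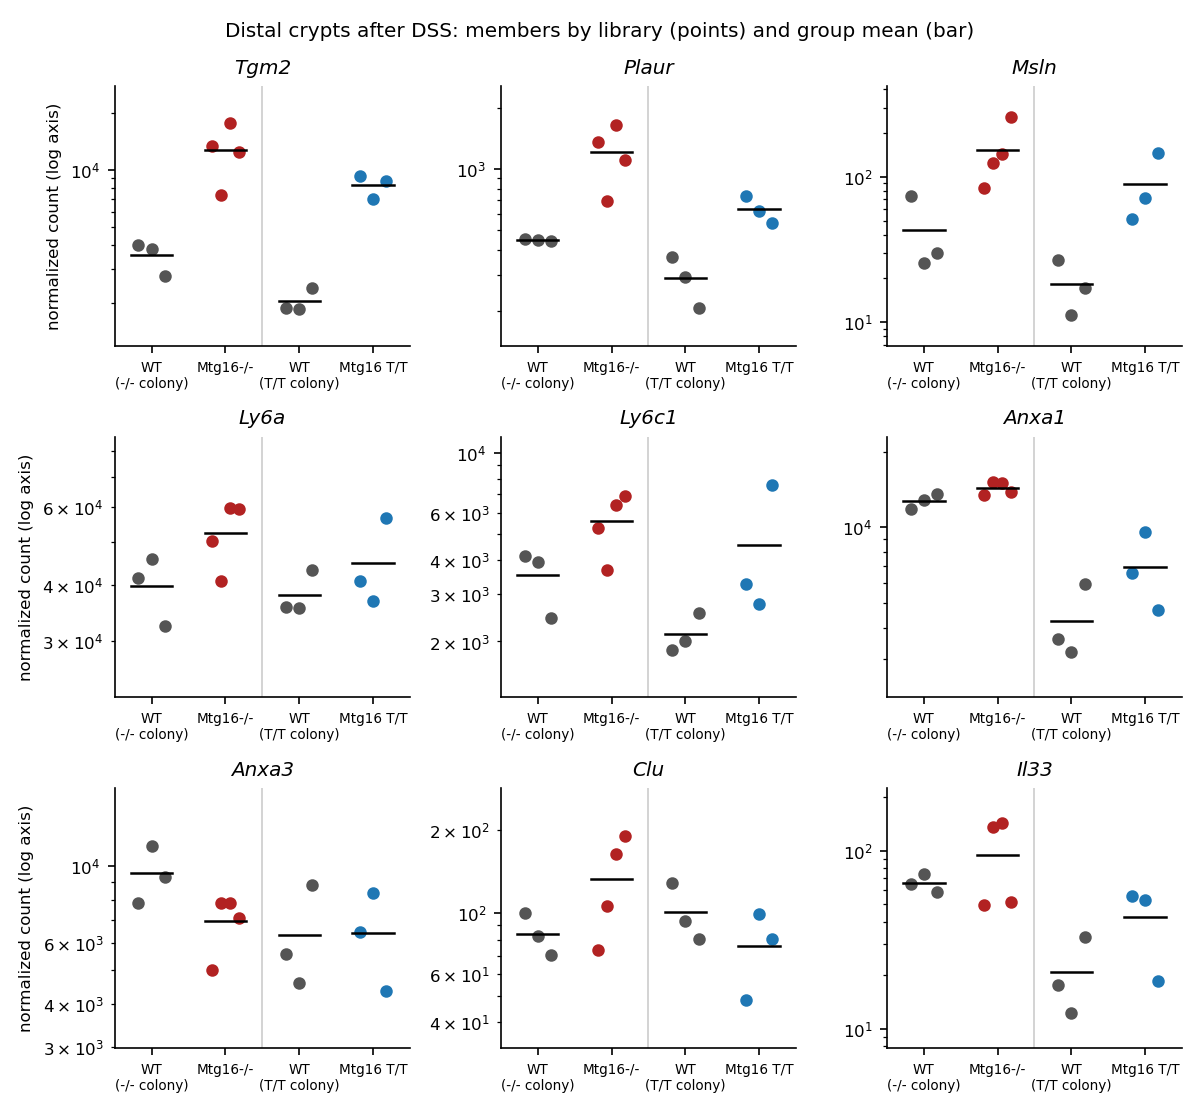
Members in distal crypts after DSS, as normalized counts on a log axis, for WT and mutant libraries of the 2 colonies, which lie in separately scaled tables. Each point is 1 library and each bar a group mean; Tgm2, Plaur and Msln lie above WT in all mutant libraries of both colonies.

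Tgm2 read 4022, 3848 and 2759 in WT and 13350, 7335, 17600 and 12340 in Mtg16-/- crypts. It was 3.45-fold higher (log2 fold change 1.79, SE 0.275, 95% interval 1.17 to 2.41, limma adjusted p = 0.0262; exact permutation p = 0.0286, the smallest possible). Plaur read 449, 448 and 442 in WT and 1366, 698, 1655 and 1113 in mutants (1.37, SE 0.269, adjusted p = 0.0581 by limma). For both genes the lowest mutant library was replicate 2.

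Msln read 73.5, 25.4 and 30.1 in WT and 84.4, 124, 144 and 258 in mutants (log2 fold change 1.85, SE 0.463, limma adjusted p = 0.109). Anxa3 leaned the other way, with 7830, 11480 and 9321 in WT and 5017, 7855, 7842 and 7068 in mutants (-0.46, SE 0.20, limma adjusted p = 0.381). Ly6c1 read 4157, 3931 and 2440 in WT and 5256, 3679, 6383 and 6918 in mutants, with overlap (0.66, SE 0.256).

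Ly6a, Anxa1, Clu and Il33 overlapped between genotypes. Ly6a read 41380, 45680 and 32320 in WT and 50190, 40880, 59570 and 59230 in mutants (0.40, SE 0.197). Clu read 99.5, 82.1 and 70.2 in WT and 73.6, 105.8, 163 and 189 in mutants (0.58, SE 0.353), so its 2 highest libraries were mutant and 1 mutant was near the WT low. Il33 was spread from 49.5 to 143 in mutants around 58.4 to 74.3 in WT, and Anxa1 differed by 0.17 (SE 0.129).

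Replicate numbers were taken to pair the libraries of this comparison, from correlations in these same libraries, as the labels name no pairs. With that assumed block (without Mtg16-/- replicate 4, which has no WT partner) Tgm2 (1.78, limma adjusted p = 0.00426) and Plaur (1.38, limma adjusted p = 0.00679) were called higher and Anxa3 lower (-0.48, limma adjusted p = 0.0301). In that fit 5.71% of genes were called higher and 3.09% lower. DESeq2 on recovered reads called 3 members higher, Tgm2, Plaur and Msln (adjusted p = 7.68e-08, 5.71e-05 and 0.00661), among 3.37% of genes. In the unblocked fit the Tgm2 call was lost on leaving out WT replicate 2 or 3 or Mtg16-/- replicate 1, 3 or 4, where its log2 fold change lay within 1.61 and 2.03 over all 7 omissions, and 2 members were called without Mtg16-/- replicate 2 (0.732% of genes). A covariate for sex, the level of Xist, gave 1.89 (limma adjusted p = 0.0895) and no call of a member (0.131% of genes).

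In the Mtg16 T/T colony Tgm2, Plaur and Msln again lay above WT in every library, and limma called no member and no gene of 13648 (0% called). In all, 4 of 9 members were higher without overlap, Tgm2, Plaur, Msln and Ly6c1 (5.66% of genes), and 4 had an unadjusted p under 0.05 (8.77% of genes, or 1197). EdgeR called 0 members, while DESeq2 called Tgm2, Plaur and Msln higher (adjusted p = 6.39e-14, 0.0186 and 0.00691) among 1.14% of genes.

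Tgm2 read 1860, 1843 and 2386 in WT and 9273, 6988 and 8750 in Mtg16 T/T crypts, a 4.11-fold difference (log2 fold change 2.04, SE 0.192, 95% interval 1.58 to 2.50, limma adjusted p = 0.0567). Plaur read 368, 292 and 207 in WT and 732, 622 and 541 in mutants (1.15, SE 0.281, adjusted p = 0.268 by limma). Msln read 26.8, 11.2 and 17.2 in WT and 51.5, 71.5 and 146 in mutants (2.17, SE 0.507, limma adjusted p = 0.258). Exact permutation p was 0.1 for each, the smallest that 3 libraries against 3 allow. With the Xist level as a covariate Tgm2 was called (2.11, adjusted p = 0.0136 by limma), among 0.887% of genes.

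Ly6c1 was also higher without overlap, at 1867, 2012 and 2543 in WT and 3252, 2761 and 7602 in mutants, with a log2 fold change of 0.95 (SE 0.391) that was 0.50 without T/T replicate 3. Anxa1 read 3587, 3196 and 5964 in WT and 6598, 9606 and 4716 in mutants, and Il33 17.6, 12.3 and 32.7 with 55.8, 52.9 and 18.6, and both overlapped. Ly6a, Anxa3 and Clu differed by 0.21 (SE 0.203), 0.02 (SE 0.331) and -0.44 (SE 0.366). Clu read 129, 93.6 and 80.1 in WT and 48.3, 98.7 and 80.1 in mutants, the only member with a negative fold change.

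**Figure D3:**
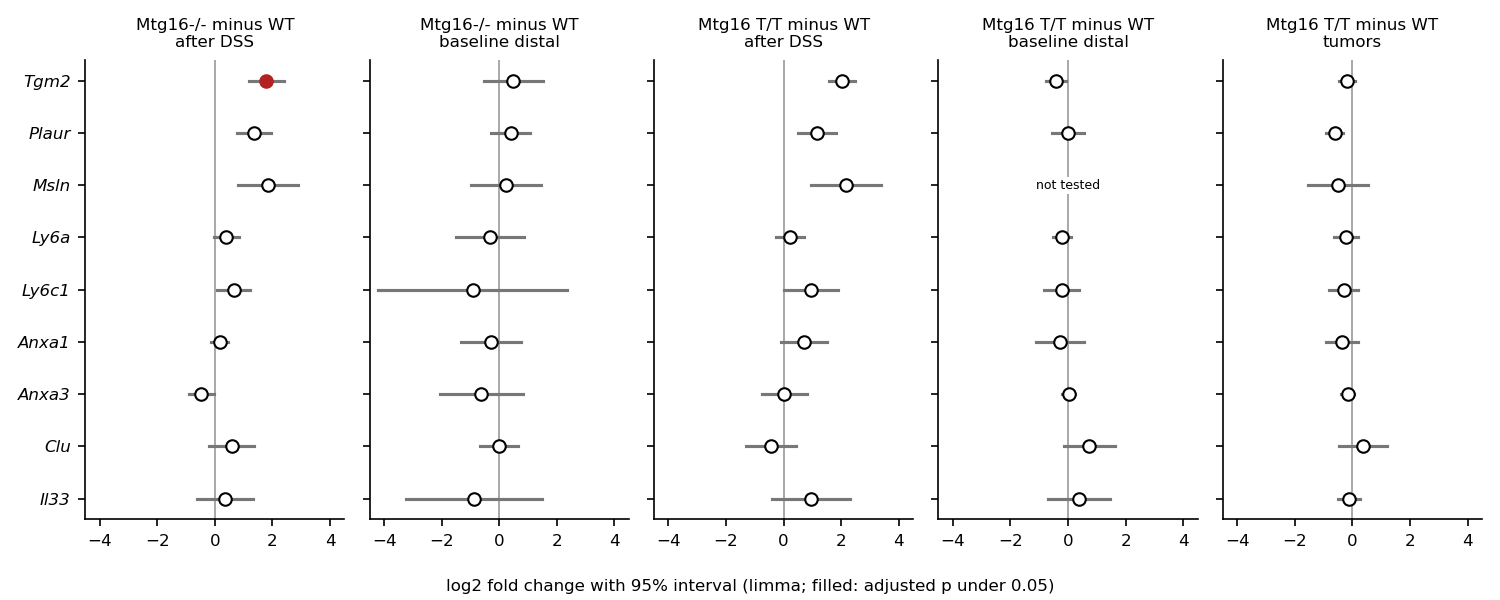
Log2 fold change of each member, mutant minus WT, with its 95% interval from limma, in 5 comparisons; filled points passed the adjusted p of 0.05. After DSS Tgm2, Plaur and Msln lie to the right of 0 in both mutants, and at baseline and in tumors their intervals cross 0 except for Plaur in tumors and Tgm2 in baseline Mtg16 T/T crypts.

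Genotype effects in separate tables were then compared by the difference of their limma fold changes, with the SE of that difference. For Mtg16 T/T, limma fold changes differed for Tgm2, the effect after DSS exceeding the baseline one by 2.45 log2 units (SE 0.244, 95% interval 1.92 to 2.98, adjusted p = 0.0023 over 13243 genes), 1 of 8 members with 0.0604% of genes called. No member of 9 was called for Mtg16-/- (0% of 13559 genes, 444 of them under an unadjusted 0.05), where the Tgm2 difference from limma was 1.302 (SE 0.526, adjusted p = 0.999), and 1.74 (SE 0.399, adjusted p = 0.0867) without the library that stands apart. The call for Mtg16 T/T was lost on leaving out DSS WT replicate 1, DSS WT replicate 2 or DSS T/T replicate 1. Between colonies after DSS, 0 of 9 members differed (0.0148% of genes called): Tgm2 by -0.25 (95% interval -0.96 to 0.46), Plaur by 0.21 (-0.62 to 1.04) and Msln by -0.32 (-1.79 to 1.14), so differences within those bounds were not excluded. Clu had the largest gap, 1.02 (-0.06 to 2.10).

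Other cell types and segment genes moved with genotype after DSS. Summed neutrophil markers read 4147 to 13880 in Mtg16-/- and 623 to 2771 in WT crypts, and 1050 to 1800 in Mtg16 T/T and 90.3 to 538.5 in WT, although 0 of 6 markers were called in either. Macrophage markers were 1483 to 4896 against 489 to 987 in the Mtg16-/- colony and overlapped in the T/T colony (547 to 716 against 499 to 871). Fibroblast markers overlapped in both, at 448 to 4411 against 399 to 489.6 and at 113 to 768 against 158 to 387, with 0 of 4 tested called in either. Summed epithelial markers overlapped in both. In the Mtg16-/- colony 1 of 7 was called higher, and Cdx2 read 8380 to 9563 in mutants and 4452 to 5575 in WT. Cdh1 was lower in mutants without overlap, at 41340 to 66540 against 67470 to 76860 in that colony and 73360 to 79110 against 83210 to 87140 in the T/T colony. Mesothelial markers, beside Msln, summed to 187 to 353 in Mtg16-/- and 116 to 198 in WT, and to 70.1 to 120.1 in Mtg16 T/T and 67.2 to 141.5 in WT, with 0 of 1 tested called in either. Of the 4, Upk1b made up most, and Wt1 averaged 1.55 and 0.859. B cell markers were 113 to 454 in Mtg16 T/T and 27.5 to 65.5 in WT, with no overlap, and overlapped in the Mtg16-/- colony (175 to 1012 and 68.4 to 362), with 0 of 4 called in either. Squamous markers were far higher in both genotypes of the Mtg16-/- colony (9995 to 34450) than in the T/T colony (116 to 314), in tables scaled apart.

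Distal-high genes stood lower and proximal-high genes higher in the mutants. In Mtg16-/- libraries 208 genes of the first kind lay at a median of -0.79 to -0.49 from the WT mean and 194 of the second at 0.69 to 1.13, and in Mtg16 T/T libraries 203 and 182 such genes lay at -1.08 to -0.25 and 0.27 to 1.16. Tgm2 and Plaur are themselves proximal-high in WT. What part segment, immune cells or library name number plays in their levels was not tested.

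**Figure D4:**
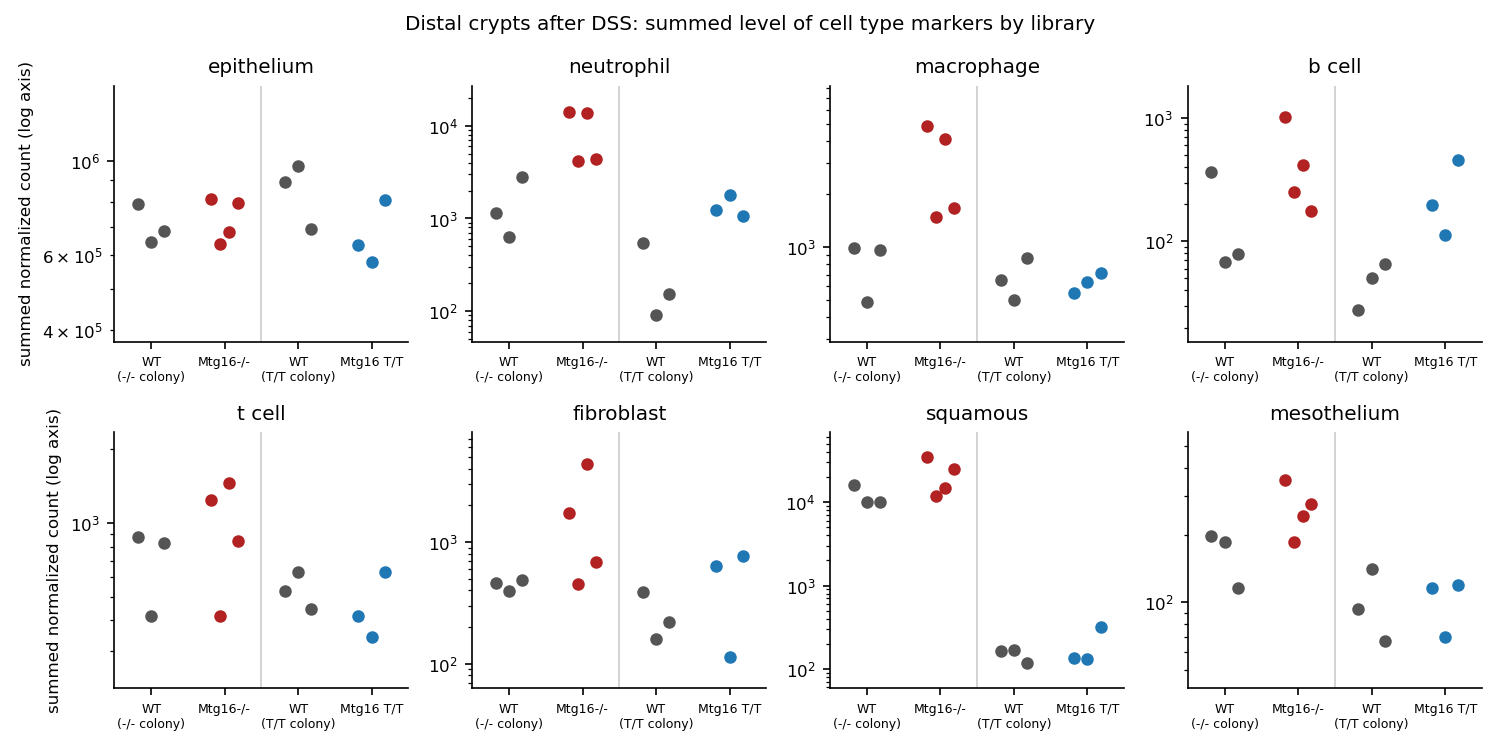
Summed normalized counts of cell type markers in the same libraries, on a log axis, 1 point a library. Neutrophil markers separate mutant from WT in both colonies and B cell markers in the T/T colony, and epithelial markers overlap.

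Gene lists from published injury and fetal signatures, which leave the members out, gave the same tables a wider view. In Mtg16-/- crypts after DSS, 7 of 152 DSS-regenerating genes, 5 of 236 fetal genes, 2 of 57 genes of the composite injury list, 2 of 47 genes of the revival cell cluster and 1 of 387 Clu+ revival genes rose and none fell. Over all genes 0.380% were called higher and 0.249% lower. The Clu+ list, at 0.258%, was below the first share, and lists this small would hold few fallers at the second. Median log2 fold changes were 0.71, 0.10, 0.49, 0.15 and -0.004 in that order, against -0.002 over all genes. Named risers were Ckb, Eya2, Myl7, Bmp8b, Prss22, Cxcl16, Il4ra, Lpcat4 and Guca2a, of which Prss22, a secreted serine protease, went from 66.5 ± 21.2 (SD, n = 3) to 412 ± 155 (n = 4). In Mtg16 T/T crypts 0 genes of any list were called (0% of all genes), with medians in the same order of 0.61, 0.11, 0.39, -0.04 and 0.20 against 0.03. The list of Ascl2-dependent dedifferentiation went the other way, with 2 of 205 genes up (Rbp4, Ttyh1), 7 down (Mptx1, Dlk1 and Cma1 among them) and a median of -0.16 in Mtg16-/- crypts, and a median of -0.30 in Mtg16 T/T crypts. Its median was also below 0 before injury, at -0.17 (with the library that stands apart) and -0.07 in distal and -0.32 and -0.26 in proximal Mtg16-/- and Mtg16 T/T crypts. Of 21 YAP and TEAD pathway genes, 22 other revival genes and 12 Ly6 genes tested in Mtg16-/- crypts, 0 were called. With 0.380% of all genes called higher and 0.249% lower, 0 calls in lists this small does not set them apart.

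In tumors, genotype moved no member past the test. In limma 0 of 9 were called, with 0% of 15900 genes called and 2.47% (392) under an unadjusted 0.05, and edgeR called 0. A total of 8 members had a negative fold change (all genes: 7869 of 15900 positive). Plaur, the only one without overlap, was lower, at 2807, 3854 and 3297 in WT and 2116, 2120 and 2199 in Mtg16 T/T tumors (log2 fold change -0.62, SE 0.126, limma adjusted p = 0.998, exact permutation p = 0.1). Lower values without overlap were found for 1 of 9 members and 2.53% of genes, and DESeq2 called Plaur lower (-0.63, adjusted p = 0.0147) among 0.0819% of genes. After DSS the same gene was higher in Mtg16 T/T crypts, though tumors are whole tissue and crypts are isolates.

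In tumors Clu read 14090, 12730 and 10350 in WT and 15080, 9362 and 28650 in Mtg16 T/T tumors (0.37, SE 0.359), and without T/T replicate 3 the difference was -0.05. Il33 read 2450, 1650 and 1783 with 1948, 1772 and 1617. Msln read 456, 1042 and 1684 in WT and 813, 467 and 723.5 in mutants. Tgm2, Ly6a, Ly6c1, Anxa1 and Anxa3 differed by -0.37 to -0.16, and all 5 overlapped. Fibroblast markers summed to 127900 to 179200 in WT and 128600 to 175200 in mutant tumors, macrophage markers to 12410 to 16580 and 13120 to 23000, and smooth muscle markers to 14100 to 28260 and 23160 to 97570, with 0 of 6, 7 and 5 tested called.

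Set side by side as CPM (the normalized count scaled to a common library total), tumors held the highest levels of 6 members. Clu ran from 193 to 604 CPM in tumors and 0.526 to 3.29 CPM in distal crypts, and Il33 from 34.1 to 50.5 and 0.046 to 2.72 CPM, its lowest distal value being the library that stands apart and the next 0.230 CPM. Plaur ran from 43.6 to 80.4 CPM in tumors and 2.45 to 29.5 in distal crypts, and Msln from 9.39 to 33.7 and 0.0238 to 4.48. Anxa1 ran from 409 to 851 CPM against 50.8 to 286, and Tgm2 from 249 to 335 against 17.7 to 314, so only Tgm2 overlapped. These tables were scaled apart and tumors carry stroma, so no test was made. Summed squamous markers were 4037 to 39410 in WT and 3544 to 28950 in Mtg16 T/T tumors, as normalized counts. Endothelial markers were 11300 to 13690 and 11060 to 17060, and neutrophil markers 9704 to 12800 and 8390 to 19440. The part of these cell types in the members' levels was not tested.

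Ly6a, Ly6c1 and Anxa3 were not tumor-high. Ly6a was highest in Mtg16-/- crypts after DSS (936 ± 134 CPM, SD, n = 4) and lowest in proximal Mtg16 T/T crypts (163 ± 74.9, n = 2), and Ly6c1 ran from 98.9 ± 22.9 CPM in the former to 0.670 ± 0.0332 in the latter. Anxa3 was highest in untreated distal Mtg16 T/T crypts (232 ± 13.6 CPM, n = 4). Neighbors in the order of the 14 groups overlapped in 10 to 12 of 13 pairs for every member. Per kilobase of exon model, Ly6a was by far the most abundant member in crypts (592 to 777 CPM per kb in distal crypts after DSS), with Clu, Il33 and Msln under 1.

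**Figure D5:**
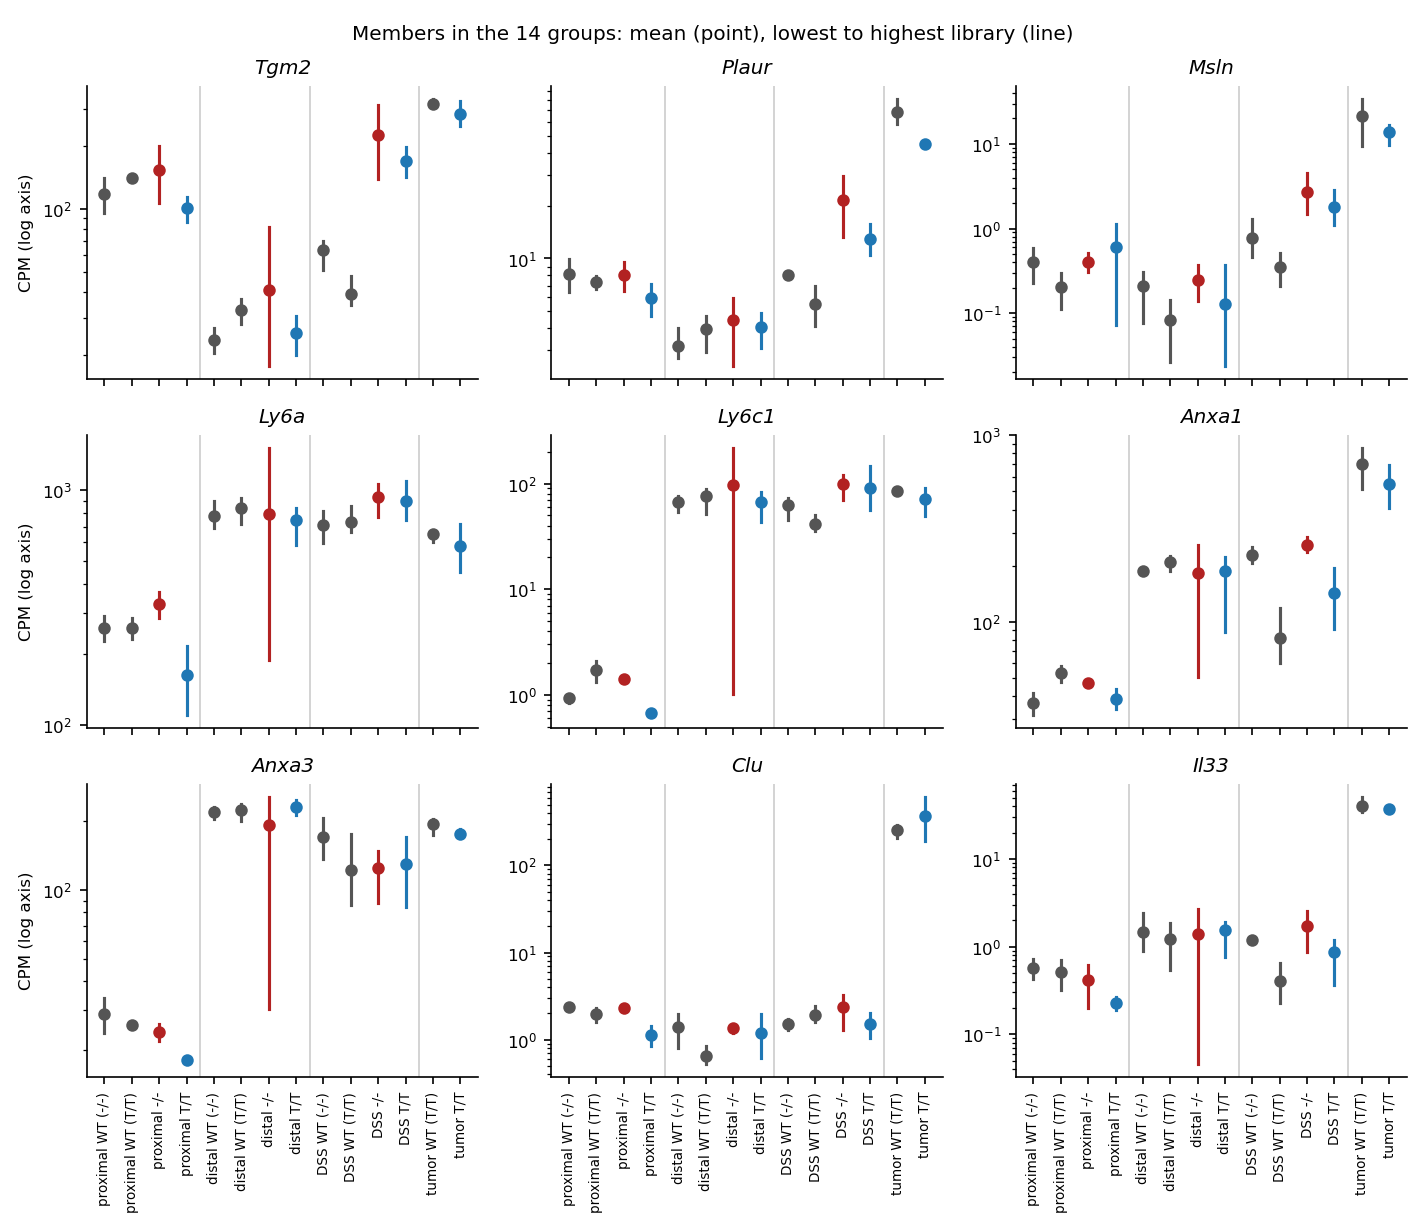
CPM of each member in the 14 groups on a log axis, with the group mean (point) and the lowest and highest library (line); gray is WT, red Mtg16-/- and blue Mtg16 T/T. Clu, Il33, Plaur, Msln and Anxa1 stand higher in tumors than in any crypt library, and Ly6c1, Anxa1 and Anxa3 stand lower in proximal crypts, the long lines of distal Mtg16-/- reaching down to replicate 2 for Ly6a, Ly6c1, Anxa1, Anxa3 and Il33.

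Across the 13 libraries after DSS, with each group's mean removed, some members varied together. Ly6a and Ly6c1 gave the highest value (Pearson r = 0.958, n = 13 libraries of 4 groups in 2 tables), followed by Anxa1 with Anxa3 (0.881) and Anxa3 with Il33 (0.821). Clu with Msln gave 0.708, while Clu lay between -0.05 and 0.29 with each other member. Plaur with Tgm2 gave 0.567, and Ly6a with Tgm2 0.760. The genes nearest to Ly6a of 10970 were Ly6c1, Zfp513 (0.899), Gga3 (0.886), Batf2 (0.882) and C2cd2l (0.875), and those nearest to Clu were Srcap (0.877), Socs7 (0.873), Rab11fip4 (0.872), Trp53inp2 (0.866) and Ercc4 (0.865). Libraries of a group share a genotype and a treatment, so these values are a description.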

How the data were processed

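Crypts or tumors gave poly(A) RNA that was sequenced as paired ends. Per the submitters' processing notes, the authors used fastp 0.20.0, Salmon 1.3.0, R 3.6.3 and DESeq2 1.26.0, with GENCODE vM21 transcripts. The authors deposited 9 tables, each scaled on its own, whose library columns are a signal, the estimated read count of a gene divided by the size factor of the library (normalized count). Their columns of fold changes and p-values were not used. Levels from separate tables are not on a common scale.

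Genes with a table mean of at least 10 were tested with limma 3.58.1 (trend) in R 4.3.3 on log2 (normalized count + 1), and p-values were adjusted over all genes of a table. Whole reads were recovered from the signal in 7 of 9 tables (100% whole within 0.1 reads) and tested with edgeR 4.0.16 and DESeq2 1.42.0 as alternatives. The fits were tested on simulated data. Cell type markers, gene lists of published signatures, relatives and partners of the members were counted with the same fits. Named genes were at most 3 for each published list and 5 for each other list, direction and comparison, by size of change among genes called, published ones with a table mean of at least 100 and groups without overlap. Members and lists were chosen with earlier results of these data known. Alternatives changed the pseudocount (10), dropped the filter, left out each library, or added Xist, replicate number, colony or the number that opens the library name. Same-numbered libraries deviated together after DSS in the Mtg16-/- colony (correlations of 0.554, 0.460 and 0.317), where replicate numbers were taken to pair them. The labels name no pairs. In baseline distal crypts of that colony the correlations were also above 0, at 0.246, 0.016, 0.369 and 0.026. Other comparisons with 3 or more pairs held negative ones. The block fit used all libraries whose number occurred in both groups.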

Additional observations from a re-analysis of the deposited data

Results flagged for a closer look

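By Dixon's test 1 library lay far from the others in 3 of 54 combinations of member and group, where chance flags about 1 in 20. Anxa3 read 1380 in the baseline distal library labelled Mtg16-/- replicate 2 and 10760 to 11650 in the other 3. Anxa1 read 3330 in baseline distal Mtg16 T/T replicate 1 and 8757 to 9226 in the others. Msln read 15.3 in baseline distal Mtg16 T/T replicate 4 and 0.953 to 3.06 in the others, a level under the filter.

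The effect of Mtg16 T/T on Tgm2 differed between distal crypts after DSS and at baseline, by 2.449 log2 units (SE 0.244), higher than WT in 3 of 3 libraries after DSS and with overlap at baseline.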

How the results depend on the processing

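Another pseudocount or no filter changed no count of called members by more than 1.5 times. Leaving out 1 library in turn left 0 to 7 members called in WT crypts after DSS against baseline (5 with all libraries), 0 to 2 after DSS for Mtg16-/- (1), 0 to 1 in proximal crypts for Mtg16 T/T (0) and 0 to 1 for the difference of Mtg16 T/T effects after DSS and at baseline (1). With the replicate block 2 members were called in WT after DSS and 3 for Mtg16-/- after DSS, and the block changed no other count. The numbers did not pair libraries in WT after DSS (correlations of -0.047, -0.121 and -0.091). DESeq2 called 3 members after DSS for Mtg16-/-, 3 for Mtg16 T/T and 1 in tumors, and with Xist as a covariate 0 were called in WT after DSS, 0 for Mtg16-/- and 1 for Mtg16 T/T. Within the libraries whose names open with 4149, 5 members were called between segments, without Clu, Il33 and Plaur. The causes were not tested.

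Some fold changes turned sign, all of values that passed no test. After DSS in Mtg16 T/T crypts, Anxa3 ran from -0.196 to 0.293 over omissions and was -0.688 with Xist, which put Anxa1 at -0.077. In tumors Clu ran from -0.049 to 0.758 and Il33 from -0.237 to 0.048. In baseline distal crypts Msln ran from -0.118 to 0.482 for Mtg16-/- (-0.29 within 4149), as did Ly6c1 from -1.775 to 0.775, Il33 from -1.484 to 0.299, Anxa3 from -0.89 to 0.135, Ly6a from -0.724 to 0.254, Anxa1 from -0.515 to 0.248 and Clu from -0.252 to 0.169, and for Mtg16 T/T Plaur ran from -0.20 to 0.135 (0.011 with Xist), Il33 from -0.095 to 0.737, Anxa1 from -0.426 to 0.064 and Anxa3 from -0.052 to 0.077. In proximal crypts for Mtg16-/-, Tgm2 ran from -0.096 to 0.79, Plaur from -0.259 to 0.257, Msln from -0.494 to 0.709, Il33 from -1.35 to 0.156 and Clu from -0.205 to 0.179, and for Mtg16 T/T Msln from -1.138 to 2.509. In a tally that took only Tgm2, Plaur and Msln (where tested) from the baseline genotype comparisons, Tgm2 from the Mtg16 T/T difference and all tested members from the other comparisons, 337 fold changes with a library left out and 315 under other settings kept direction and side of the threshold, 17 and 4 turned sign and the others crossed it. Recovered reads were not used for the 2 proximal genotype tables, so edgeR and DESeq2 were not run there. Groups of 2 to 4 libraries limit every genotype and DSS test, and the segment test had 7 against 4.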
